A study of Mus musculus with 8 samples.

Results

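The 49 genes described here are the chemokines and chemokine receptors of the array, measured in white fat from the abdomen of adult mice. A gene was taken where its single symbol in the authors' annotation is Ccl, Cxcl, Ccr or Cxcr followed by a number only, and Cx3cl1, Cx3cr1 and Xcl1 were added. The 49 genes, 33 ligands and 16 receptors, are read by 78 probe sets (groups of oligonucleotide probes that read 1 transcript) of the 45037 tested, which name 20743 genes. Where several probe sets read 1 gene, the values are those of the brightest on average, and 31 of the 49 have a single probe set. Cxcr7 carries the current name Ackr3.

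The arrays compare mice that carry loss-of-function alleles of the Regulator of sex-limitation (Rsl) genes with mice that carry the functional alleles. The rsl groups were males and females of the strain B10.D2.PL, homozygous rsl/rsl, and the wild type groups were males and females of the strain B10.D2, homozygous Rsl/Rsl. All mice were adult and ate a standard chow, and their exact age was not given in the sources used here. Each of the 4 groups had 2 Affymetrix expression arrays, each of RNA pooled from 5 mice. Rsl genes code for zinc finger proteins of the Krüppel-associated box family, which are known as transcriptional repressors. The strains may differ in the chromosome segments that travel with the rsl alleles, and effects of such segments and of the Rsl genes cannot be told apart. The sources used here do not say if 1 mouse gave RNA to several pools, so the p-values cover the spread of these pools only.

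Chemokines are small secreted proteins that steer the movement of leukocytes, and their receptors are G protein-coupled receptors on the cells that respond. In adipose tissue they are best known for bringing in monocytes, which become tissue macrophages, through Ccl2 and its receptor Ccr2. Other members guide eosinophils, neutrophils and lymphocytes, and some hold cells in place, as Cxcl12 does through Cxcr4. In bulk tissue, fewer cells of a type and less RNA per cell cannot be told apart.

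The sequences below are the RefSeq promoters (GRCm38.p6, 250 bases before the start of the gene to 50 after it) of 4 genes on which the results turn, namely a receptor that fell, a scavenging receptor that fell, a ligand that rose and a ligand that rose in rsl males. Capitals mark the motifs found, and 36 of the 49 genes had a promoter in the table. The Ccr2 window lies at chr9:124101933-124102232 on the plus strand, the Cxcr7 (Ackr3) window at chr1:90203730-90204029 on the plus strand, the Cxcl14 window at chr13:56296502-56296801 on the minus strand and the Cx3cl1 window at chr8:94771930-94772229 on the plus strand.
Ccr2: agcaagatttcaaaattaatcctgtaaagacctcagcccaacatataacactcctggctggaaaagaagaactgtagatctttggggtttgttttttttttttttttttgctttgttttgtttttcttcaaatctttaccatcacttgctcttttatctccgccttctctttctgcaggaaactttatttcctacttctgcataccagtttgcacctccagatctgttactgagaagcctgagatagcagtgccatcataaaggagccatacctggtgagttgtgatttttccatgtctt
Cxcr7: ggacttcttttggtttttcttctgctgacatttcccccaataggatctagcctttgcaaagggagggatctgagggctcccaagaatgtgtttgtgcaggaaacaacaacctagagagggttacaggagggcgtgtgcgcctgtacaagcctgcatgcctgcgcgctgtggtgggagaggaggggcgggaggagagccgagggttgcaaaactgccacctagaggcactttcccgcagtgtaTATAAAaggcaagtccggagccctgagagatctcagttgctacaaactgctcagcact
Cxcl14: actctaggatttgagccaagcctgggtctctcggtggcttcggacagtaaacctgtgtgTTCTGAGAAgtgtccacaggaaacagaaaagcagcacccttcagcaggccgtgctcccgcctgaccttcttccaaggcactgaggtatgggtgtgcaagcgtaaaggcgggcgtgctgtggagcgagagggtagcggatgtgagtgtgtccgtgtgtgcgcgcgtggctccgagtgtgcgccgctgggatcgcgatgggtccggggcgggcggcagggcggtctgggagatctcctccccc
Cx3cl1: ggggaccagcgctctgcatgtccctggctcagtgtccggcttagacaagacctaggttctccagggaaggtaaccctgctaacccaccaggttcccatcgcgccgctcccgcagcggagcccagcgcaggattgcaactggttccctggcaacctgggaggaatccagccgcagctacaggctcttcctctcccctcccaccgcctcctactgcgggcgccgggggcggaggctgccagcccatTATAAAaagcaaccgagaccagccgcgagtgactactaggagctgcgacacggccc

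A script searched both strands of each promoter for 6 motifs. These were the TATA box (TATAAA), PU.1 (GAGGAAGT), an NF-kB motif, AP-1 (TGANTCA), the GAS element (TTCNNNGAA) and the GC box (GGGCGGGG). The Cxcr7 window holds TATAAA at positions -8 to -3 and the Cx3cl1 window holds it at -6 to -1, counted from the RefSeq start, and 13.6% of the 32851 promoters in the table hold it. The Cxcl14 window holds a GAS match, the motif bound by STAT factors, at -191 to -183, and 8.3% of promoters hold one. The Ccr2 window holds none of the 6 motifs. NF-kB, the factor that drives many inflammatory chemokines, had a match in 4 of the 38 promoters found for 36 genes described here. These were the promoters of Cxcl1, Cxcl2, Cxcl3 and Ccr3, against 0.411% of all promoters. Cxcl2, Cxcl3 and Ccr3 were below the array background, defined below, in all pools. Of the same 38 promoters, 11 held the TATA box and 3 the GAS element. AP-1 was in 6 (7.81% of all promoters), the GC box in 4 (17.6%) and PU.1 in 1 (3.2%). These matches are descriptions of the letters in these windows.

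Signals are log2 values. The background of an array was the brightest of 22 controls without a specific target, those with a GC count of 3 to 24. It lay between 3.73 and 4.01, under the array medians of 4.54 to 4.58. Of the 49 genes, 37 were above background in all 8 pools, 4 in some pools and 8 in none. In a single pool, 62.8% to 71% of all probe sets were above it. The 12 genes that were not above background throughout include Ccl3, Ccr3, Ccr7, Cxcl2, Cxcl5, Cxcl11 and Xcl1. As a check of the labels, Rsl1, one of the Rsl genes, had 3.98 and 3.83 in rsl males, 3.56 and 3.69 in rsl females, 4.62 and 5.02 in wild type males and 5.09 and 5.25 in wild type females. Every rsl pool lay below every wild type pool. One label field gives the source as liver while the tissue label and the series design give adipose tissue. The 11 measured adipocyte markers were bright in every pool and averaged 11.15 to 11.90. The 6 liver markers averaged 4.10 and 4.33 in rsl males, 4.63 and 4.57 in rsl females, 5.79 and 7.11 in wild type males and 4.42 and 4.51 in wild type females.

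The male pools also held RNA of the reproductive tract. The 10 epididymis markers averaged 12.17 and 11.63 in rsl males, 3.96 and 3.96 in rsl females, 7.26 and 5.13 in wild type males, and 3.79 and 3.83 in wild type females. Wild type male pool 1 was as bright as the rsl males for Lcn5, Crisp1 and Spint4 but not for Lcn8, Cst8 or Rnase10. 6 of the 10 markers passed the test between rsl and wild type males. The 6 testis markers went the other way in males, with 6.19 and 4.82 in rsl and 6.82 and 7.07 in wild type. They averaged 3.72 to 3.83 in the female pools. All 6 were lower in rsl males, and 3 of them passed the test. The part of these tissues in the differences below was not tested. The rsl male arrays also had the highest 3' minus 5' control values, a sign of RNA quality. For Gapdh these were 0.79 and 1.03 in rsl males, against 0.50 to 0.72 in the other pools, and for actin 1.16 and 1.20, against 0.88 to 1.09. The part of RNA quality in the male differences was not tested.

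Across both sexes, 2 receptors fell and 1 ligand rose in rsl fat. Ccr2, the receptor that draws monocytes to Ccl2, averaged 6.93 ± 0.33 in rsl and 7.83 ± 0.15 in wild type pools (SD, n = 4 each). Cxcr7, a scavenging receptor of Cxcl12, averaged 9.19 ± 0.21 in rsl and 9.72 ± 0.23 in wild type pools, and Cxcl14, a chemokine of epithelia and stroma, averaged 5.45 ± 0.21 in rsl and 5.01 ± 0.11 in wild type pools. In the limma fit of all probe sets these 3 of 49 genes passed an adjusted p of 0.05, beside 1.19% of all probe sets. The 2 that fell stand beside 0.853% of probe sets that fell, and the 1 that rose beside 0.34% that rose. The median difference of the 49 genes was -0.01, against 0.01 over all probe sets.

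**Figure D1:**
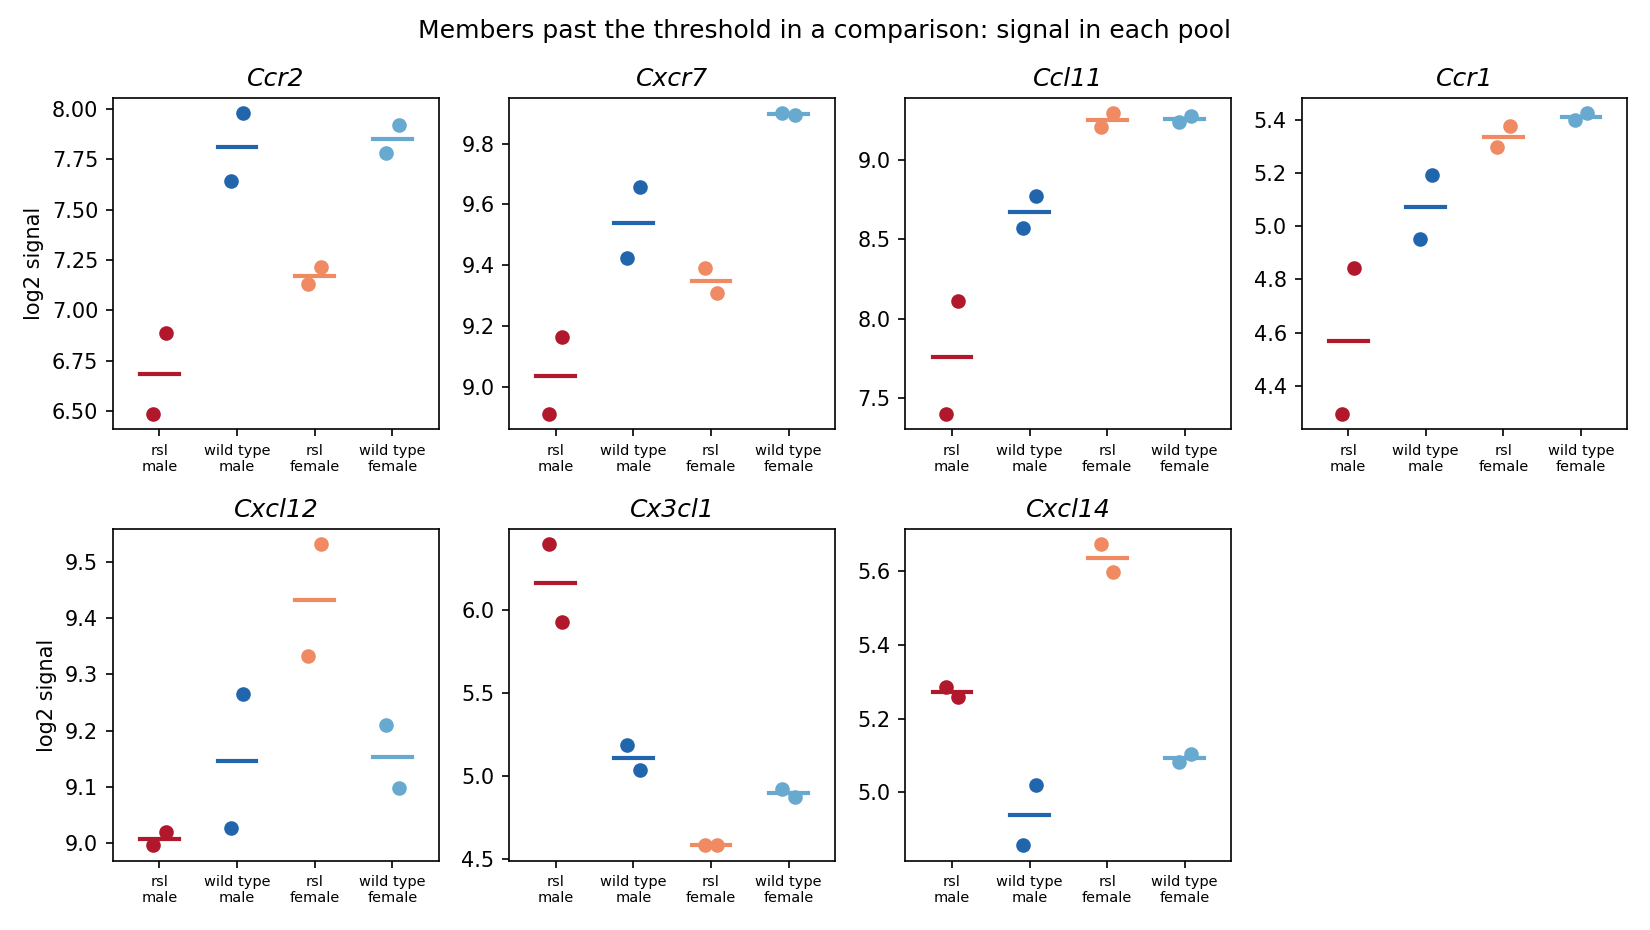
Log2 signal (vertical axis) of each gene past the threshold in any comparison, 1 point per pool, with rsl pools left of wild type pools in each sex and a bar at each group mean. Ccr2 and Cxcr7 lie lower and Cxcl14 higher in every rsl pool than in the wild type pools, and Cx3cl1 is highest in rsl males at 6.39 and 5.92.

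The count of 3 depended on which pool was left out. It was 0 without either rsl female pool or either wild type female pool, 1 without wild type male pool 2, where Cxcl14 remained, and 12 without rsl male pool 2. The direction of each of the 3 genes stayed the same in each of these fits. The calls over all probe sets in the same fits are not given here, so a shift across the whole array cannot be told apart. All rsl pools lay outside the range of all wild type pools for 7 of the 49 genes. Ccl2, Ccl24, Ccr2 and Cxcr7 were lower, beside 3.89% of probe sets, and Ccr4, Cxcl14 and Cxcl17 were higher, beside 4.49%.

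**Figure D2:**
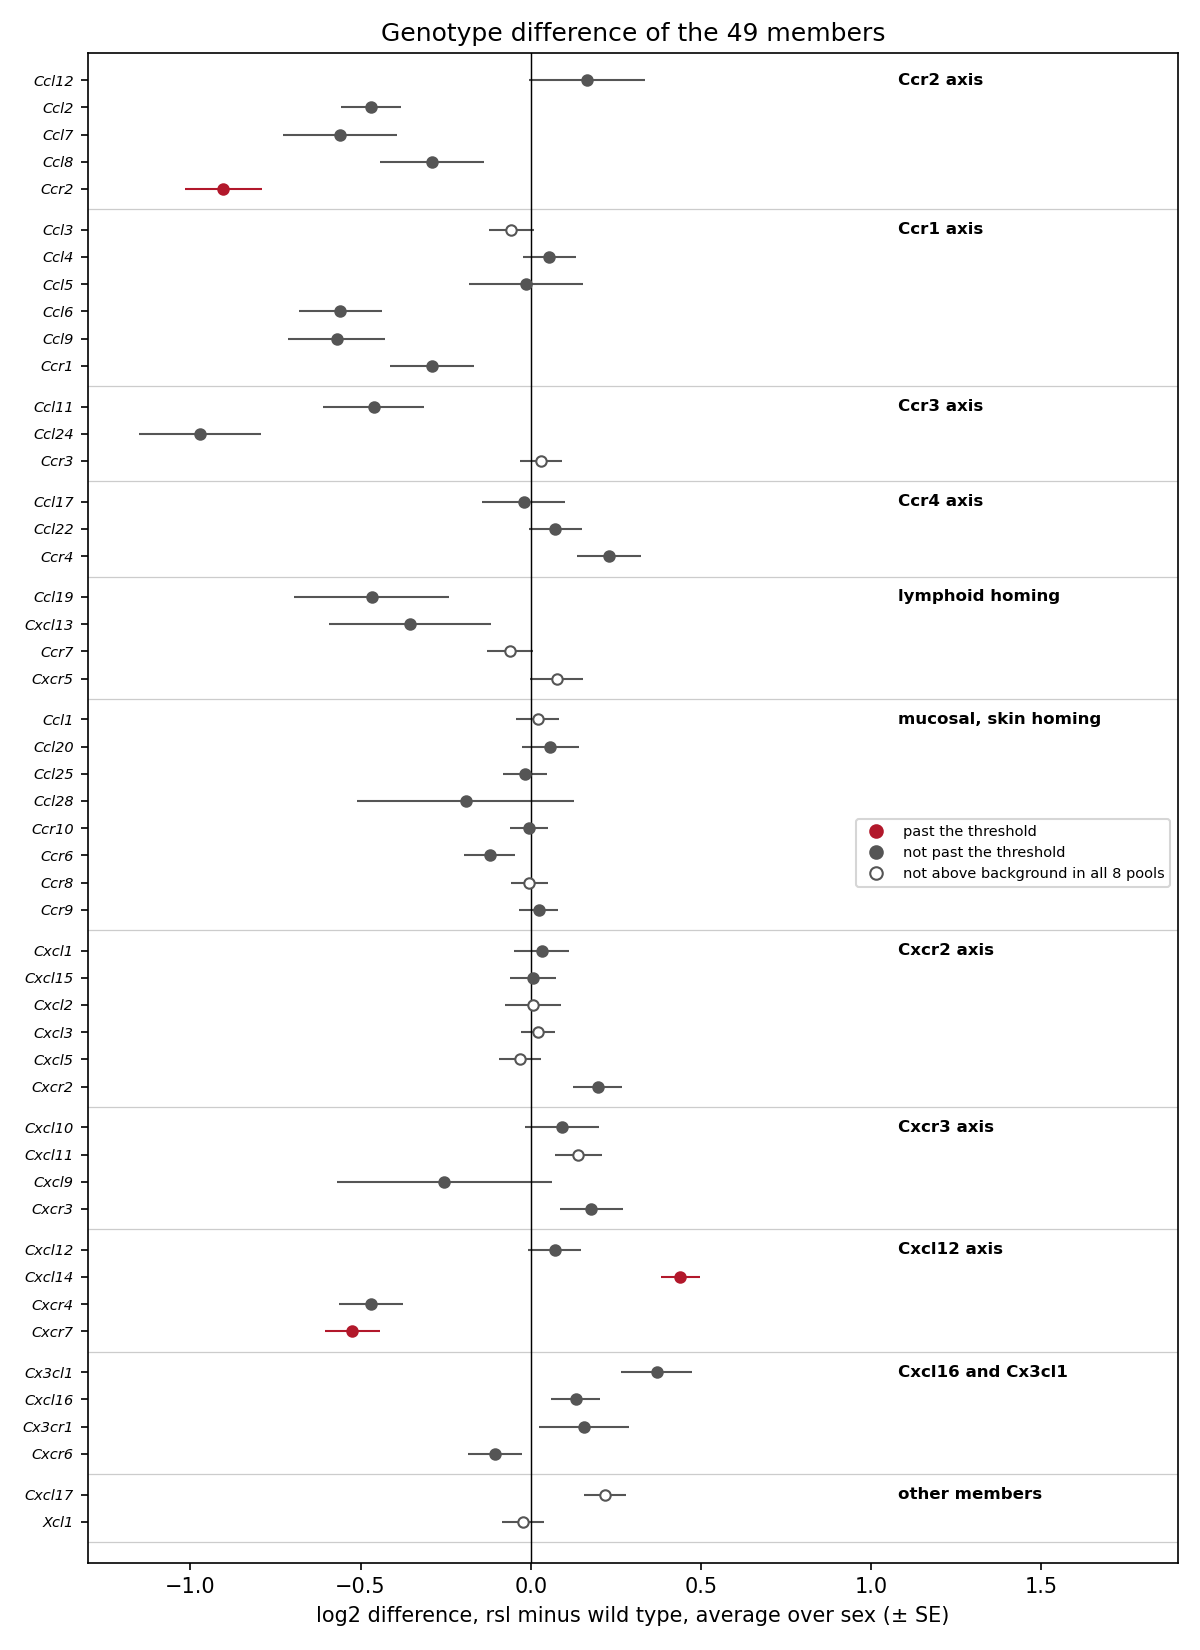
Log2 difference, rsl minus wild type averaged over sex, with its standard error (horizontal axis), for the 49 genes grouped by receptor axis. Filled red points passed the threshold (Ccr2 -0.90, Cxcr7 -0.52, Cxcl14 0.44), and open points mark genes that were not above background in all 8 pools.

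Ccr2 had 6.48 and 6.89 in rsl males, 7.13 and 7.21 in rsl females, 7.64 and 7.98 in wild type males and 7.78 and 7.92 in wild type females. The lowest wild type pool was above the highest rsl pool. The difference was -0.90 ± 0.11 (SE), a 1.87-fold lower signal, with a limma adjusted p of 0.0245. Within males it was -1.13 ± 0.16 (adjusted p = 0.0336), and within females -0.68 ± 0.16 (adjusted p = 0.23). In males the call was lost without rsl male pool 1, wild type male pool 2 or any 1 female pool, with adjusted p from 0.0509 to 0.133. The difference between the sexes was -0.45 ± 0.23 (adjusted p = 0.537).

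The 4 probe sets of Ccr2 did not move alike. The probe set 1421188, with 4.95 and 5.02 in rsl males, 5.18 and 5.10 in rsl females, 5.47 and 5.37 in wild type males and 5.59 and 5.89 in wild type females, fell by 0.52 (adjusted p = 0.0374). The probe set 1460067 lay between 5.01 and 5.21 in all 8 pools and differed by 0.01 (adjusted p = 0.954). The dim probe set 1421187 differed by -0.33 (adjusted p = 0.123) and was above background in 3 pools. Taken as the mean of its probe sets, Ccr2 differed by -0.44 (adjusted p = 0.0387), and in males by -0.48 (adjusted p = 0.0626).

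**Figure D3:**
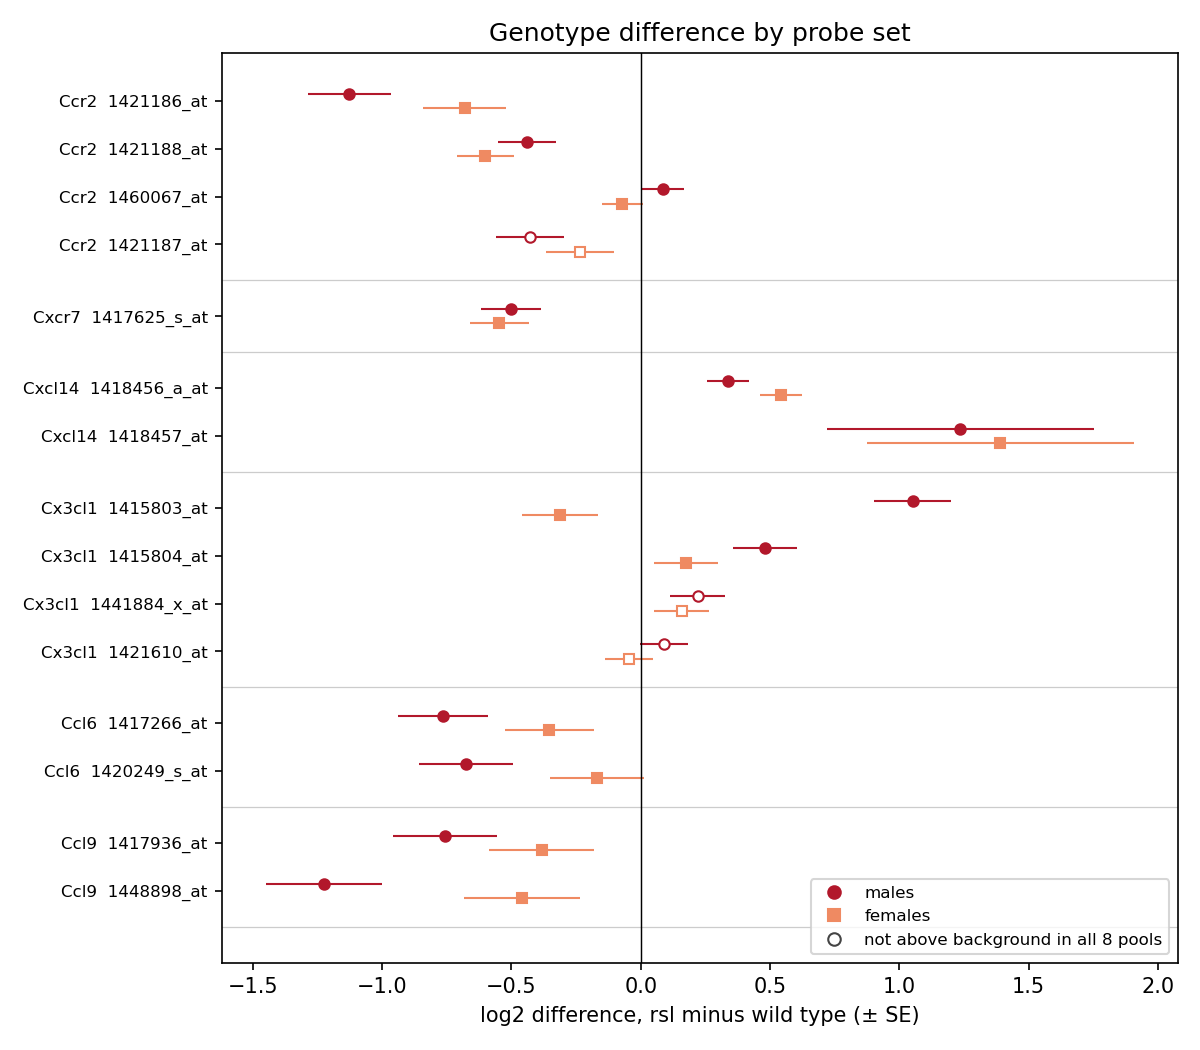
Log2 difference, rsl minus wild type, with its standard error (horizontal axis), in males (dark red circles) and females (orange squares) for each probe set of Ccr2, Cxcr7, Cxcl14, Cx3cl1, Ccl6 and Ccl9, where open symbols mark probe sets that were not above background in all 8 pools. The brightest Ccr2 probe set lies at -1.13 in males and -0.68 in females, while another lies at 0.08 in males and -0.07 in females.

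Of the ligands of Ccr2, none passed the test. Ccl2, the main monocyte attractant, had 5.26 and 5.32 in rsl males, 5.19 and 5.26 in rsl females, 5.81 and 6.01 in wild type males and 5.37 and 5.72 in wild type females. Its strains did not overlap, and the difference was -0.47 ± 0.09 (adjusted p = 0.0621). Ccl7, a close relative, differed by -0.56 ± 0.17 (adjusted p = 0.137), with 4.13 and 4.11 in rsl males, 4.40 and 4.49 in rsl females, 4.68 and 5.01 in wild type males and 4.45 and 5.23 in wild type females. The strains were apart in males and overlapped in females. Ccl8 differed by -0.29 ± 0.15 (adjusted p = 0.323), with 9.11 and 8.64 in rsl males, 9.22 and 9.23 in rsl females, 8.99 and 9.58 in wild type males and 9.50 and 9.30 in wild type females. Ccl12 differed by 0.17 ± 0.17 (adjusted p = 0.607), with 5.63 and 5.51 in rsl males, 5.60 and 5.40 in rsl females, 5.18 and 5.73 in wild type males and 4.97 and 5.60 in wild type females. For both ligands the strains overlapped over all pools.

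Ccr1, a receptor of monocytes and neutrophils for Ccl3 and Ccl5, did not pass between the strains. It had 4.29 and 4.84 in rsl males, 5.30 and 5.38 in rsl females, 4.95 and 5.19 in wild type males and 5.40 and 5.43 in wild type females. Its difference was -0.29 ± 0.12 (adjusted p = 0.238), and within each sex the rsl pools lay under the wild type pools. Ccl6 and Ccl9, ligands of Ccr1 in the mouse, were bright. Ccl6 had 9.30 and 9.78 in rsl males, 10.11 and 10.28 in rsl females, 10.15 and 10.47 in wild type males and 10.53 and 10.57 in wild type females. Each rsl pool lay under the wild type pools of its sex, and the difference was -0.56 ± 0.12 (adjusted p = 0.0821). Ccl9 differed by -0.57 ± 0.14 (adjusted p = 0.104), with 8.87 and 9.47 in rsl males, 9.67 and 9.82 in rsl females, 9.75 and 10.10 in wild type males and 10.08 and 10.18 in wild type females. Its second probe set differed by -0.84 (adjusted p = 0.0618).

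Ccl5 and Ccl4, 2 further inflammatory CC ligands above background, did not pass the test. Ccl5, made by T cells and NK cells, had 6.59 and 7.13 in rsl males, 6.42 and 6.60 in rsl females, 6.67 and 7.22 in wild type males and 6.28 and 6.61 in wild type females. It averaged 6.68 ± 0.31 in rsl and 6.70 ± 0.39 in wild type pools, a difference of -0.01 ± 0.17 with a 95% interval from -0.41 to 0.38. Ccl4, made by activated macrophages and lymphocytes, had 4.51 and 4.37 in rsl males, 4.27 and 4.51 in rsl females, 4.50 and 4.34 in wild type males and 4.34 and 4.27 in wild type females. It averaged 4.42 ± 0.12 in rsl and 4.36 ± 0.10 in wild type pools, with an interval from -0.13 to 0.24. The strains overlapped for both ligands, and Ccl3 was not above background in all pools.

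Macrophage markers lay lower in the same pools. The 15 markers averaged 7.58 and 7.92 in rsl males, 8.11 and 8.22 in rsl females, 8.11 and 8.41 in wild type males and 8.38 and 8.39 in wild type females. In the average of the sexes 14 of the 15 were lower in rsl, 1 of them (Lyve1, -0.79, adjusted p = 0.0481) past the test, and the median difference was -0.39. None was at background in all pools, and Itgam was above it in 7 of 8. The 11 adipocyte markers were also all lower in rsl in the average of the sexes, with a median of -0.08, none past the test. In males all 11 were lower, with a median of -0.28, and in females 2 were lower. Among 5 measured monocyte markers, F13a1, a factor of monocytes and resident macrophages, fell by 0.89 (adjusted p = 0.00678), while Chil3 rose by 0.59 (adjusted p = 0.0317) at values under 4 in all pools. The monocyte list averaged 6.76 and 6.85 in rsl males, 6.76 and 6.76 in rsl females, 6.75 and 6.49 in wild type males and 6.59 and 6.65 in wild type females, and 2 of its 5 markers were lower in rsl. The part of monocyte and macrophage content in the differences of Ccr2, Ccr1 and their ligands was not tested.

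**Figure D4:**
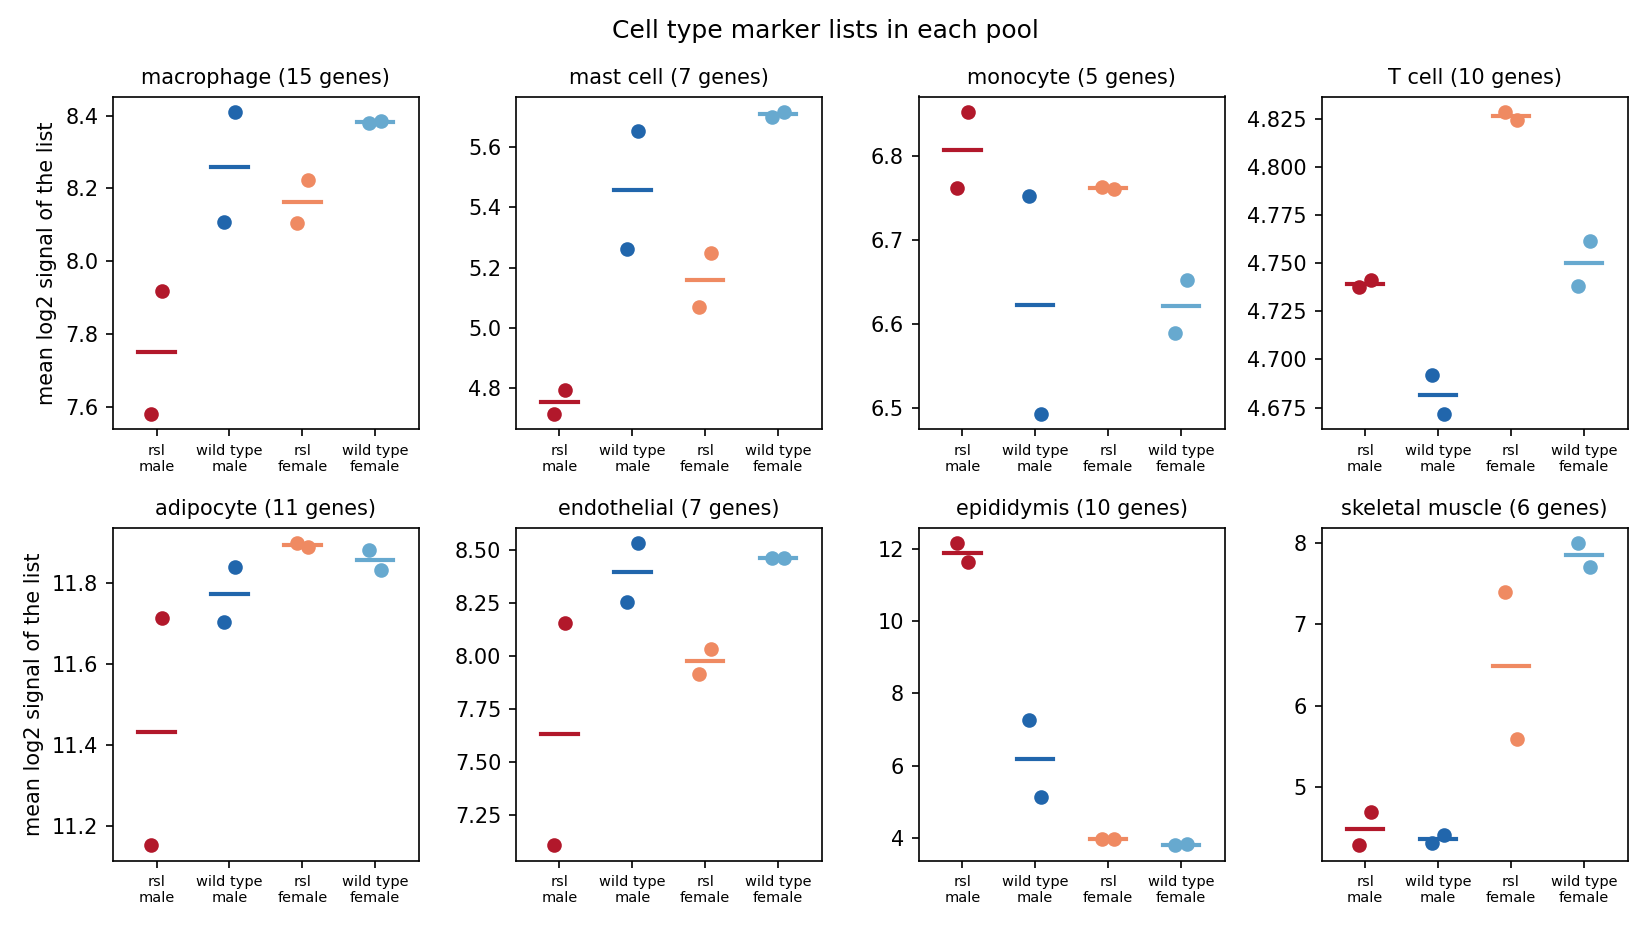
Mean log2 signal (vertical axis) of the marker lists in each pool, with rsl pools left of wild type pools in each sex. The macrophage list lies lowest in rsl males at 7.58 and 7.92, and the epididymis list is highest there at 12.17 and 11.63.

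Eotaxins, the ligands of Ccr3, attract eosinophils. Ccl24 had 5.66 and 6.47 in rsl males, 6.53 and 6.87 in rsl females, 7.19 and 7.47 in wild type males and 7.40 and 7.35 in wild type females. Every rsl pool lay under every wild type pool, and rsl male pool 1 was the lowest. The difference of -0.97 ± 0.18 is the furthest from 0 among the 49 genes and did not pass the test (adjusted p = 0.0599). It was -0.77 without rsl male pool 1 and -1.17 without rsl male pool 2. The SD of Ccl24 was 0.57 in rsl males, against 0.03 to 0.24 in the other groups. A fit with 1 rsl male pool left takes its spread from the other groups and cannot show whether the gene passes. Ccl11 had 7.40 and 8.11 in rsl males, 9.20 and 9.29 in rsl females, 8.57 and 8.77 in wild type males and 9.24 and 9.27 in wild type females. It differed by -0.92 ± 0.21 in males (adjusted p = 0.0842) and by -0.01 ± 0.21 in females (95% interval from -0.50 to 0.49). Ccr3 was below background in all 8 pools, as were the eosinophil markers Siglecf, Epx and Il5ra. Of the 5 eosinophil markers, 1 was above background in all 8 pools, and 2 were lower in rsl on average, none past the test. The list averaged 4.39 and 4.46 in rsl males and 4.41 and 4.56 in rsl females. In wild type it averaged 4.60 and 4.70 in males and 4.60 and 4.57 in females. The part of eosinophils in the differences of Ccl24 and Ccl11 was not tested.

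Cxcl12, its receptors and Cxcl14 were read as a group, in which 1 gene rose and 1 fell. Cxcl14 had 5.29 and 5.26 in rsl males, 5.67 and 5.60 in rsl females, 4.86 and 5.02 in wild type males and 5.08 and 5.10 in wild type females. The lowest rsl pool was above the highest wild type pool, and the difference was 0.44 ± 0.06, a 1.36-fold higher signal (adjusted p = 0.0261). Taken as the mean of its probe sets, Cxcl14 differed by 0.88 and did not pass (adjusted p = 0.0845). The difference was 0.34 ± 0.08 in males (adjusted p = 0.0932) and 0.54 ± 0.08 in females (adjusted p = 0.0787). The second probe set had 6.30 and 4.58 in rsl males, 5.45 and 5.55 in rsl females, 4.62 and 3.79 in wild type males and 4.05 and 4.17 in wild type females. It differed by 1.31 (adjusted p = 0.122), with rsl male pool 2 just under wild type male pool 1. Cxcl14 lies on chromosome 13, as Rsl1 does, with 82 measured genes between them.

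Cxcr7 had 8.91 and 9.17 in rsl males, 9.39 and 9.31 in rsl females, 9.42 and 9.66 in wild type males and 9.90 and 9.89 in wild type females. The rsl and wild type pools did not overlap. The difference was -0.52 ± 0.08, a 1.44-fold lower signal (adjusted p = 0.0397). It was -0.50 ± 0.11 in males (adjusted p = 0.0839) and -0.55 ± 0.11 in females (adjusted p = 0.186). Cxcr4, the signalling receptor of Cxcl12, had 4.08 and 4.26 in rsl males, 4.56 and 4.52 in rsl females, 4.68 and 4.38 in wild type males and 4.99 and 5.25 in wild type females. It differed by -0.47 ± 0.09 and did not pass the test (adjusted p = 0.0709). Cxcl12 itself averaged 9.22 ± 0.26 in rsl and 9.15 ± 0.11 in wild type pools, with a 95% interval of the difference from -0.11 to 0.25. Its second bright probe set had 7.60 and 8.41 in rsl males, 8.64 and 8.82 in rsl females, 8.36 and 8.68 in wild type males and 8.93 and 8.89 in wild type females. It differed by -0.35 (adjusted p = 0.302), the opposite sign to the first. Endothelial cells carry Cxcr7, and the 7 endothelial markers were all lower in rsl in the average of the sexes, none past the test. They averaged 7.11 and 8.16 in rsl males, 7.92 and 8.03 in rsl females, 8.26 and 8.53 in wild type males and 8.46 and 8.47 in wild type females, with none at background. Their part in the Cxcr7 difference was not tested.

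Cx3cl1 and Cxcl16 are made as transmembrane proteins, whose receptors Cx3cr1 and Cxcr6 mark monocytes and T cells. Cx3cl1 had 6.39 and 5.92 in rsl males, 4.58 and 4.59 in rsl females, 5.18 and 5.03 in wild type males and 4.92 and 4.87 in wild type females. The rsl males were highest and the rsl females lowest, with no overlap in either sex. In males the gene rose by 1.05 ± 0.15, a 2.07-fold higher signal (adjusted p = 0.0328), and in females the difference was -0.31 ± 0.15 (adjusted p = 0.496). The call in males was lost in 7 of 16 alternative settings. The male difference was 0.82 without rsl male pool 1, 1.29 without rsl male pool 2 and 0.98 without wild type male pool 2. Without any 1 female pool it stayed at 1.05, with adjusted p from 0.113 to 0.117.

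The other probe sets of Cx3cl1 moved less. One had 5.35 and 5.28 in rsl males, 4.81 and 5.19 in rsl females, 4.88 and 4.79 in wild type males and 4.82 and 4.83 in wild type females, a male difference of 0.48 (adjusted p = 0.103). The mean of its probe sets differed by 0.46 in males (adjusted p = 0.0694). The pools with the highest Cx3cl1 were also those with the highest epididymis markers, 12.17 and 11.63, and the part of that tissue in the Cx3cl1 difference was not tested.

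The partners of these ligands did not pass the test in the average of the sexes. Cx3cr1 had 5.35 and 4.88 in rsl males, 4.72 and 4.42 in rsl females, 4.84 and 5.06 in wild type males and 4.29 and 4.55 in wild type females, a difference of 0.16 ± 0.13 (adjusted p = 0.524). Cxcl16 had 6.55 and 6.72 in rsl males, 6.62 and 6.81 in rsl females, 6.31 and 6.37 in wild type males and 6.68 and 6.81 in wild type females, a difference of 0.13 ± 0.07 (adjusted p = 0.335). Cxcr6 had 4.08 and 4.36 in rsl males, 4.36 and 4.44 in rsl females, 4.41 and 4.40 in wild type males and 4.34 and 4.52 in wild type females, a difference of -0.11 ± 0.08 (adjusted p = 0.472). Only Cxcl16 and Cxcr6 in males had pools of the strains apart, the first higher and the second lower in rsl.

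Within males 2 of the 49 genes passed, beside 1.32% of probe sets. Ccr2 was the 1 that fell, beside 0.828% of probe sets, and Cx3cl1 the 1 that rose, beside 0.491%. The count was 0 without wild type male pool 2 or any 1 female pool, 1 without rsl male pool 1, 3 without wild type male pool 1 and 10 without rsl male pool 2. Within females 0 of 49 passed in limma, beside 0.209%, while 10 had an unadjusted p under 0.05, beside 11% of probe sets. When only the 4 female arrays entered the fit, Ccl24, Ccr2, Cxcl14, Cxcr4 and Cxcr7 passed. The share of all probe sets that passed in that fit is not given here, so these calls cannot be set against it. No gene passed the test of the difference between the sexes in limma (0.0577% of probe sets did), and 4 had an unadjusted p under 0.05, beside 10.8%.

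The sexes were also set side by side by direction. In all, 21 of the 49 genes were lower in rsl in both sexes (42.9%, against 27.7% of all probe sets), 13 were higher in both and 15 had opposite signs. In each sex taken alone, the rsl pools lay under the wild type pools for 9 genes, beside 9.44% of probe sets, and above them for 4, beside 9.03%. The 9 were Ccl2, Ccl6, Ccl9, Ccl19, Ccl24, Ccr1, Ccr2, Cxcr4 and Cxcr7, and the 4 were Ccr4, Cxcl11, Cxcl14 and Cxcl17. Of the 9, 4 are receptors, and Ccl19 is the ligand of Ccr7 that guides dendritic cells and T cells to lymph nodes.

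**Figure D5:**
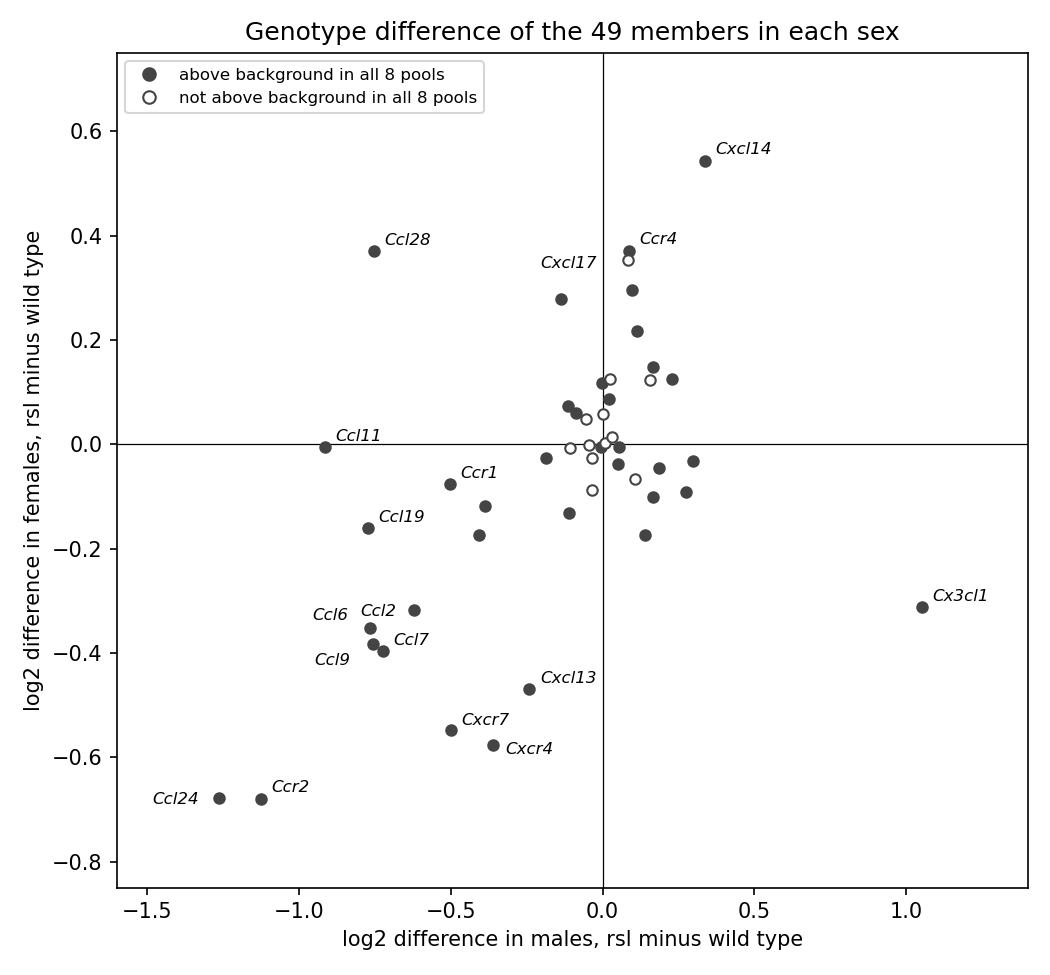
Log2 difference, rsl minus wild type, in males (horizontal axis) against females (vertical axis) for the 49 genes, with open points for genes not above background in all 8 pools. Ccr2 and Ccl24 lie lowest in both sexes, Cxcl14 is higher in both, and Cx3cl1 is higher in males (1.05) and lower in females (-0.31).

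Male and female fat were also compared within each strain. In rsl mice 5 of the 49 genes passed, beside 12.3% of all probe sets. In males 1 was higher, beside 4.73%, and 4 were lower, beside 7.61%. Cx3cl1 was higher in males by 1.58 ± 0.15 (adjusted p = 0.00262). Ccl11 differed by -1.49 ± 0.21 (adjusted p = 0.00854), Ccr1 by -0.77 ± 0.17 (adjusted p = 0.0335), Cxcl14 by -0.36 ± 0.08 (adjusted p = 0.0324) and Cxcl12 by -0.42 ± 0.11 (adjusted p = 0.0499). A second probe set of Ccl9 was also lower in males, with a difference of -1.06 (adjusted p = 0.0284). The second Cxcl14 probe set differed by -0.06 (adjusted p = 0.959) and the second bright Cxcl12 probe set by -0.73 (adjusted p = 0.107).

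The Cx3cl1 difference passed under all 16 alternative settings, with values from 0.56, for the mean of its probe sets, to 1.81. Of the same 16 settings, Ccl11 kept its call in 14, Ccr1 in 9, Cxcl14 in 6 and Cxcl12 in 4. The count of 5 was 1 without either rsl female pool, 2 without rsl male pool 1 or either wild type female pool, 8 without either wild type male pool and 10 without rsl male pool 2. Rsl male pool 1 had the lowest Ccl11 (7.40) and Ccr1 (4.29) of all 8 pools and also the lowest adipocyte, macrophage and endothelial means, at 11.15, 7.58 and 7.11. Without that pool Ccl11 differed by -1.13 and Ccr1 by -0.49. Male and female pools also differed in epididymis and muscle markers, and the part of dissection in the sex differences was not tested.

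In wild type mice 0 of the 49 genes passed between the sexes in limma, beside 3.83% of probe sets, and 10 had an unadjusted p under 0.05, beside 17.4%. Ccl28, a mucosal chemokine, had 5.48 and 6.90 in wild type males and 4.22 and 3.95 in wild type females, against 5.86 and 5.01 in rsl males and 4.50 and 4.41 in rsl females. The difference between the sexes in wild type was 2.10 ± 0.45 (adjusted p = 0.0561). Its male pools stood above its female pools and apart from each other. Wild type male pool 2 also had the highest mean of the liver markers. The dimmer Ccl28 probe sets 1450217 and 1450218 differed by 0.01 (adjusted p = 0.973) and 0.09 (adjusted p = 0.659) in the same comparison. They were above background in 3 and 0 pools. Cxcr4 differed by -0.59 ± 0.13 (adjusted p = 0.0671), Ccl25, a thymic and intestinal chemokine, by -0.41 ± 0.09 (adjusted p = 0.0643) and Cxcl16 by -0.41 ± 0.10 (adjusted p = 0.0875). Whether the sex difference of Cx3cl1 in rsl mice differs from the 0.21 ± 0.15 in wild type mice is the same test as the interaction, 1.36 ± 0.21 (adjusted p = 0.106).

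The remaining 25 genes did not pass any test, and 14 of them were above background in all pools. Their differences between rsl and wild type averaged over sex ran from -0.47 (Ccl19) to 0.23 (Ccr4), with a smallest adjusted p of 0.224. The neutrophil axis of Cxcr2 and its ligands had a median difference of 0.01 over 6 genes. Only 3 of the 6 were above background in all 8 pools, and Cxcl2, Cxcl3 and Cxcl5 were below it in all. The brightest Cxcl1 probe set differed by 0.03 (adjusted p = 0.845). The probe sets 1441855 and 1419209 differed by 0.24 (adjusted p = 0.0786) and -0.23 (adjusted p = 0.125), the last above background in 4 pools. Cxcr2 had 4.28 and 4.06 in rsl males, 4.29 and 4.43 in rsl females, 4.06 and 4.10 in wild type males and 3.99 and 4.13 in wild type females. Its pools were apart in females, by 0.30 ± 0.10 (adjusted p = 0.371), and overlapped in males. The interferon-induced ligands of Cxcr3, with that receptor, had a median of 0.12 over 4 genes. Of these, Cxcl9 had 7.63 and 9.23 in rsl males, 8.52 and 8.58 in rsl females, 8.64 and 8.999 in wild type males and 8.58 and 8.75 in wild type females. Its rsl male pools enclosed all the other pools, and the difference was -0.25 ± 0.32 (adjusted p = 0.673). Ccr4, the receptor of Th2 and regulatory T cells, had 4.21 and 4.24 in rsl males, 4.21 and 4.62 in rsl females, 4.08 and 4.20 in wild type males and 4.01 and 4.07 in wild type females, a difference of 0.23 ± 0.09 (adjusted p = 0.224). The strains did not overlap but were separated by a narrow gap near background. Cxcl17 was also higher in all rsl pools. It had 3.90 and 3.93 in rsl males, 4.07 and 4.23 in rsl females, 3.79 and 3.86 in wild type males and 3.87 and 3.73 in wild type females, and was not above background in all pools.

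The mucosal and skin homing group of 8 genes had no gene past the test, and its differences ran from -0.19 (Ccl28) to 0.06 (Ccl20). B cell follicle chemokine Cxcl13 had 6.37 and 5.99 in rsl males, 6.71 and 7.01 in rsl females, 5.85 and 6.99 in wild type males and 7.35 and 7.32 in wild type females, a difference of -0.36 ± 0.24 (adjusted p = 0.425). Its rsl and wild type pools were apart in females and overlapped in males. Ccl19 had 6.10 and 6.43 in rsl males, 5.60 and 5.61 in rsl females, 6.47 and 7.60 in wild type males and 5.73 and 5.80 in wild type females. It was lower in rsl within each sex, with an average difference of -0.47 ± 0.23 (adjusted p = 0.291).

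Chemokine genes lie in clusters. On chromosome 11, which holds 14 of the 49, Ccl2, Ccl7, Ccl11, Ccl12, Ccl8 and Ccl1 follow each other with no other measured gene between them, as do Ccl5, Ccl9, Ccl6, Ccl3 and Ccl4. Within the first run the differences between the strains were -0.47 for Ccl2 and 0.17 for Ccl12, and within the second -0.57 for Ccl9 and -0.01 for its neighbour Ccl5, none past the test. On chromosome 9, Ccr2 fell, while Ccr3 beside it was below background. Cx3cl1 on chromosome 8 stands between Ccl22 and Ccl17, which differed in males by 0.19 and -0.11 and did not pass the test.

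Of 16 measured chemokine system genes outside the 49, 2 fell and 0 rose across both sexes. Ackr2, a scavenger of inflammatory CC chemokines, had 5.63 and 5.81 in rsl males, 6.19 and 5.94 in rsl females, 6.27 and 6.45 in wild type males and 6.42 and 6.40 in wild type females. All rsl pools were lower, by 0.49 on average (adjusted p = 0.0488). Cmklr1, the chemerin receptor of macrophages and adipocytes, fell by 0.68 (adjusted p = 0.047), and its ligand chemerin, Rarres2, differed by -0.65 (adjusted p = 0.106). In males Sdc1, a heparan sulfate carrier that binds chemokines, rose by 1.78 (adjusted p = 0.0487), with 9.78 and 8.68 in rsl males against 7.45 and 7.44 in wild type males. Of 26 genes of chemokine receptor signalling, 0 passed in limma in the average and 1 in males, the regulator Rgs18, which fell by 0.96 (adjusted p = 0.0468). Of 20 cytokine and NF-kB genes that induce chemokines, 0 passed in limma in either, and Il1a, Il6, Ifng and Sele were below background in all pools.

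Some mast cell markers fell too. Of 7 mast cell markers, 5 were lower in rsl in the average of the sexes, and 3 of these passed the test. The 3 were Cpa3, lower by 1.47, Cma1 by 1.63 and Fcer1a by 0.44. Fcer1a was below background in all pools, as was Ms4a2. The list averaged 4.71 and 4.79 in rsl males, 5.07 and 5.25 in rsl females, 5.26 and 5.65 in wild type males and 5.70 and 5.72 in wild type females. In each sex the rsl pools lay under the wild type pools. Of 10 T cell markers, 0 passed in limma between the strains, with a median difference of 0.09. The part of mast cells in the differences of the 49 genes was not tested.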

How the data were processed

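Per the labels' protocols, 400 ng of total RNA was turned into biotinylated cRNA and hybridized to the arrays, on a 3' in vitro transcription protocol. The authors deposited a log2 signal for each probe set, made with RMA (robust multi-array average, a background correction, quantile normalization and summary of probes), per the submitters' processing notes, version not stated. A second deposited table gave the other unit, annotation text, from which the gene symbols were taken, and 8 of its value columns matched no sample and were not used. Arrays give no read depth, and their number limits the precision.

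Of 45141 probe sets, 104 controls were set aside. Models with 1 coefficient per group were fitted to all 8 arrays with limma 3.58.1 in R 4.3.3 (4 residual and 3 prior degrees of freedom), without a filter on dim probe sets. Two-sided p-values were adjusted by Benjamini and Hochberg's method across the 45037 probe sets of each comparison, and the threshold was 0.05. The fitting was tested on simulated data. Values in every pool are given for genes past the threshold, for the genes with the smallest p of a comparison, for the partners of called genes above background, and for a few others named after their values were seen (Ccl19, Ccr4, Cxcl9, Cxcl13). The 49 genes, the marker and pathway lists and the alternatives were chosen with earlier results of these data known. 1 gene is not reported here. Promoters come from RefSeq (GRCm38.p6).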

Additional observations from a re-analysis of the deposited data

Results flagged for a closer look

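For 3 genes the difference between rsl and wild type had opposite signs in the sexes, with no overlap of the pools in either sex, each read by its brightest probe set. The value is the difference in males minus that in females, from the interaction term of the limma fit, and none of the 3 passed. Cx3cl1 had 1.36 (adjusted p = 0.106), with rsl males above wild type males and rsl females below wild type females. It passed with array weights (adjusted p = 0.0478). Its value was 1.13 without rsl male pool 1 and 1.60 without rsl male pool 2. Cxcl12 had -0.42 (adjusted p = 0.399), with 8.996 and 9.02 in rsl males, 9.33 and 9.53 in rsl females, 9.03 and 9.27 in wild type males and 9.21 and 9.10 in wild type females. Ccl25 had 0.31 (adjusted p = 0.455), with 4.92 and 4.87 in rsl males, 4.98 and 5.01 in rsl females, 4.85 and 4.66 in wild type males and 5.24 and 5.09 in wild type females. The second probe set of each gene, also above background in all 8 pools, had 1 sign in both sexes. It differed by 0.48 in males and 0.17 in females for Cx3cl1 (interaction adjusted p = 0.586), by -0.52 in males and -0.18 in females for Cxcl12 and by 0.23 in males and 0.0099 in females for Ccl25. Neither Cxcl12 nor Ccl25 passed this test under any of the alternatives.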

How the results depend on the processing

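Over the values of the named genes under the alternatives, 524 kept their direction and side of the threshold, 61 lost a call, 45 gained one and 6 turned round, and the cause of these changes was not tested. The 6 concern differences near 0. Ccl4 averaged over sex became -0.0059 without rsl female pool 2. Ccl5 averaged over sex became 0.0533 with quantile normalization and ran from -0.15 to 0.12 with 1 pool left out, above 0 in 4 of those 8 fits. The count of genes between rsl and wild type averaged over sex (3) became 5 with array weights and ran from 0 to 12 with 1 pool left out. The count in males (2) became 0 with the mean of the probe sets of a gene (gene means), 0 with only the arrays compared and 0 to 10 with 1 pool left out. The count in females (0) became 2 with array weights, 5 with only the arrays compared and 0 to 1 with 1 pool left out. The interaction count (0) became 1 with array weights and 0 to 5 with 1 pool left out. Between rsl males and females the count (5) became 3 with gene means, 3 with array weights, 2 with only the arrays compared and 1 to 10 with 1 pool left out. Between wild type males and females the count (0) became 1 with an intensity trend, 1 with probe sets above background only, 1 with gene means, 5 with array weights, 1 with only the arrays compared and 0 to 5 with 1 pool left out. Where 1 pool of a group was left out, the lone pool is assumed to vary like the other groups. The counts in this paragraph stand without the calls over all probe sets in the same fits. A change in them cannot be told from a shift across the whole array.

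Pool numbers were used as a replicate block in another alternative. Deviations of same-numbered pools from their group means correlated at -0.05 to 0.11, and at 0.35 between rsl and wild type males. The labels do not say that a number marks a shared batch, and with 2 numbers a group these correlations do not settle whether the pools are paired. With the replicate block the count averaged over sex was 7 (761 over all probe sets against 537). It was 6 in males, 0 in females, 0 for the interaction, 7 within rsl and 1 within wild type. For these other counts the calls over all probe sets are not given here. A change in them cannot be told from a shift across the whole array.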
